A study of Homo sapiens with 24 samples.

Results

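The 8 genes described here are 2 relatives of p53 and 6 genes whose products set how much p53 a cell holds and how active it is. They were listed by name, with no threshold on their values but with earlier results of these data known, and all 8 were found by Ensembl identifier among the 57736 genes of the count table. p53 is a transcription factor that is kept at a low level until DNA is damaged. MDM2 is the ubiquitin ligase that marks p53 for breakdown, and MDM4 is its partner that covers the activation domain of p53. USP7 and USP2 are deubiquitinases that remove ubiquitin from MDM2, and USP7 also acts on p53. PPM1D encodes the phosphatase WIP1, which removes the phosphates that damage kinases place on p53, and HIPK2 is a kinase that phosphorylates p53 after severe damage. TP63 and TP73 encode p63 and p73, which bind DNA sites of the same kind as p53. MDM2, PPM1D and TP73 are themselves known targets of p53, so that their mRNA is a common readout of p53 activity as well as part of its control.

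Transcripts were counted by 3′ RNA-seq in 24 libraries of U87-T cells, a glioblastoma line that carries a transgene for TERT, the protein part of telomerase. The DAXX series and the ATRX series each held WT and knockout cells, untreated (control) or given etoposide, with 3 libraries in each of the 8 groups. DAXX and ATRX form a chaperone complex that places histone H3.3, and etoposide is a drug that traps topoisomerase II on broken DNA. The comparisons asked how each knockout shifted these genes, how they responded to damage, and whether that response differed between knockout and WT. The study's methods describe a U87-T control with an empty Cas9 vector, while the labels of these libraries say only WT. By the study, DAXX_KO and ATRX_KO were each 1 clone that had gained features of alternative lengthening of telomeres. Knockout and clone thus cannot be told apart. The dose and time of etoposide for these libraries are not given in the sources used here, and the labels do not say how the replicates of these libraries were taken. The study describes its experiments in general as biological duplicates or triplicates. The p-values measure the spread between these libraries.

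Library totals ran from 6928950 to 13298557 counts, and levels are given as CPM (counts per 1e6 counts) after TMM scaling over all 24 libraries. DAXX fell from 34.5 ± 1.27 to 5.92 ± 1.08 CPM (SD, n = 3) in untreated DAXX_KO, and ATRX fell from 189.5 ± 5.07 to 79.4 ± 5.73 CPM (SD, n = 3) in untreated ATRX_KO. The labels conflict on DAXX_KO, whose genotype field gives ATRX as the gene knocked out. ATRX was higher there than in WT and DAXX was lower, so that the sample titles were followed. The mesenchymal glioma markers VIM, CD44, FN1 and ANXA1 each were at least 101.1 CPM in every library. The other glioma line markers were lower, with NES from 18.8 to 88.9 CPM and TNC from 44.1 to 119.7 CPM. The astrocyte markers GFAP and S100B were at or below 0.496 CPM, and the neural lineage markers SOX2 and OLIG2 reached at most 4.53 and 1.66 CPM. The blood, epithelial and smooth muscle markers PTPRC, EPCAM and MYH11 reached at most 1.77, 2.64 and 3.16 CPM. With library totals in place of TMM, the median log2 fold change of all genes moved by 0.18 for untreated DAXX_KO against WT and by at most 0.13 in either direction elsewhere.

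Of the 8 genes, 7 passed the low-count filter and TP63 did not. RefSeq promoter windows, which run from 250 bases before a transcript start to 50 bases after it, were held for 7 of the 8 genes in 14 windows, from build GRCh38.p14. Each window was searched for 2 adjacent p53 half-sites with no spacer, using the published consensus of 10 bases, with at most 1 mismatch per half-site and none in its central C and G. The consensus is its own reverse complement, so that both strands were read at once. The mismatch tolerance was set after looking at the windows, so that the shares given here describe the search and test nothing. Such a pair was present in 55 of 35116 windows, or 0.157%, and in 53 of 27305 genes, or 0.194%. Among the 8 genes it was present in MDM2 and TP73, in 3 of the 14 windows, and in no window of TP63, MDM4, PPM1D, USP2 or USP7. Their windows are shown because these were the 2 genes with the steepest rise under etoposide in WT cells, with the paired half-sites in capitals, 5′ to 3′ on the plus strand.
MDM2: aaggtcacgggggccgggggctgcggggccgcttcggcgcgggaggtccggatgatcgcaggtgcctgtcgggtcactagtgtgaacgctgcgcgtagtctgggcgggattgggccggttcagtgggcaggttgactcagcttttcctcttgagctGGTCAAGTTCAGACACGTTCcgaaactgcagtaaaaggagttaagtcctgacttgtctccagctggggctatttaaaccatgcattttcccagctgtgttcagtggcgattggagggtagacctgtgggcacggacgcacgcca
TP73: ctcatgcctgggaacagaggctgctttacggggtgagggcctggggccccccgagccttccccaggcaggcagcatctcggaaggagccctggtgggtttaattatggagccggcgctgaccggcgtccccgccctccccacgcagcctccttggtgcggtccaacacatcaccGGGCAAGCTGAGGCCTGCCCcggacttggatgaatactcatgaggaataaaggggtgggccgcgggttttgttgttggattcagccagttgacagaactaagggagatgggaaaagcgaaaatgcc
By exact match to GRCh37, the build of the count table, the MDM2 window lies at chr12:69202547-69202846 and its paired half-sites at chr12:69202703-69202722. The TP73 window lies at chr1:3606986-3607285 and its paired half-sites at chr1:3607160-3607179. Each pair differs from the consensus at 2 of its bases and starts 94 bases before the transcript start in MDM2 and 76 bases before it in TP73. No annotated exon covers either pair, and 6 of 36 MDM2 transcripts and 7 of 14 TP73 transcripts span it, so that both are intronic for the longer transcripts and upstream of an internal start. The primers that the study used for p53 chromatin immunoprecipitation at MDM2 (ggttgactcagcttttcctcttg and ggaaaatgcatggtttaaatagcc) match chr12:69202676-69202792 in GRCh37, a stretch of 117 bases that holds the MDM2 pair. A match describes the letters of a window and not binding.

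MDM2 (chr12:69201957-69239324, plus strand) rose most steeply of the genes with more than a few counts. In WT cells of the DAXX series it stood at 53.7, 46.9 and 58.3 CPM untreated and at 874, 870.0 and 864 CPM with etoposide. In WT cells of the ATRX series it stood at 48.2, 55.4 and 52.7 CPM untreated and at 927, 924 and 979.9 CPM with etoposide. Every treated library was thus far above every untreated one, and the WT cells of both series gave close values. The log2 fold change was 4.05 ± 0.08 (SE, FDR = 5.25e-18) in the DAXX series and 4.202 ± 0.09 (SE, FDR = 1.48e-15) in the ATRX series. Under etoposide DAXX_KO reached only 572, 548 and 508 CPM, up from 57.0, 47.7 and 51.2 CPM. ATRX_KO reached 621, 619.9 and 561 CPM, up from 69.4, 68.4 and 60.6 CPM. All 6 treated knockout libraries lay below all 6 treated WT libraries, while all lay far above the untreated ones.

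The MDM2 response was accordingly smaller in both knockouts, by 0.66 on the log2 scale in DAXX_KO (interaction -0.66 ± 0.11, FDR = 0.000462) and by 1.03 in ATRX_KO (interaction -1.03 ± 0.11, FDR = 1.92e-05). The difference between these 2 interactions in the joint model of 24 libraries was -0.34 with a 95% interval from -0.65 to -0.03, which missed the threshold after adjustment over all genes (FDR = 0.272). As a share of the WT log2 response, DAXX_KO kept 83.6% and ATRX_KO kept 75.6%. The median over all genes that rose in WT was 73.5% in DAXX_KO (4512 genes) and 60.0% in ATRX_KO (5191 genes). The share of MDM2 was larger than these medians. They cover genes chosen by the WT response that also divides the share, which favours smaller shares, so that the gap describes and tests nothing. MDM2 ended lower than WT, at a log2 difference of -0.69 (FDR = 1.55e-07) in DAXX_KO and -0.68 (FDR = 1.43e-06) in ATRX_KO. Without damage MDM2 did not pass the test in DAXX_KO (log2 fold change -0.02 with a 95% interval from -0.19 to 0.14, and 0.16 when scaled to library totals), and it was higher in ATRX_KO by 0.35 ± 0.08 (FDR = 0.00227). The last part of MDM2 overlaps CPM, the gene for carboxypeptidase M on the opposite strand, which had 24 to 160 counts per library against 356 to 10328 for MDM2. The strand setting of the counting is not given in the sources used here. In bulk RNA a lower level can mean fewer cells with the transcript or less of it per cell, which cannot be told apart.

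PPM1D (chr17:58677554-58743641, plus strand), the WIP1 phosphatase, also rose with etoposide. WT cells of the DAXX series went from 15.3, 13.5 and 13.7 CPM to 48.6, 51.9 and 49.6 CPM, and WT cells of the ATRX series from 17.6, 17.6 and 14.9 CPM to 63.4, 63.3 and 62.0 CPM. DAXX_KO went from 8.65, 11.4 and 9.90 CPM to 23.3, 20.1 and 19.9 CPM, and ATRX_KO from 7.25, 9.34 and 10.6 CPM to 20.9, 19.96 and 20.99 CPM. The knockouts were lower than WT on both sides of the treatment, with no overlap, and they overlapped each other in both states. In log2 terms the response was 1.83 ± 0.11 (FDR = 1.95e-11) and 1.93 ± 0.11 (FDR = 1.64e-10) in WT of the DAXX and ATRX series, against 1.09 ± 0.12 (FDR = 3.58e-07) in DAXX_KO and 1.17 ± 0.12 (FDR = 5.54e-07) in ATRX_KO.

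The loss of PPM1D response was of like size in the 2 knockouts, with an interaction of -0.75 ± 0.17 (FDR = 0.00468) in DAXX_KO and -0.76 ± 0.17 (FDR = 0.00515) in ATRX_KO, which leaves 59.3% and 60.7% of the WT log2 response. Their difference was 0.01 with a 95% interval from -0.42 to 0.44. In untreated cells PPM1D was lower by 0.51 on the log2 scale in DAXX_KO (-0.51 ± 0.13, FDR = 0.00242) and by 0.88 in ATRX_KO (-0.88 ± 0.12, FDR = 2.48e-05). Scaled to library totals, the PPM1D value in DAXX_KO was -0.32 (FDR = 0.0455). With etoposide the gaps to WT were -1.26 (FDR = 6.17e-09) and -1.64 (FDR = 3.84e-09), the deepest among the genes above 1 CPM in every library. The 60 tested genes nearest to PPM1D on chromosome 17 were also lower without damage, at median log2 fold changes of -0.70 (DAXX_KO) and -0.49 (ATRX_KO). That regional level moved with the untreated PPM1D result, and its part in it was not tested. For the interaction the same neighbours had medians of 0.09 and -0.05.

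**Figure D1:**
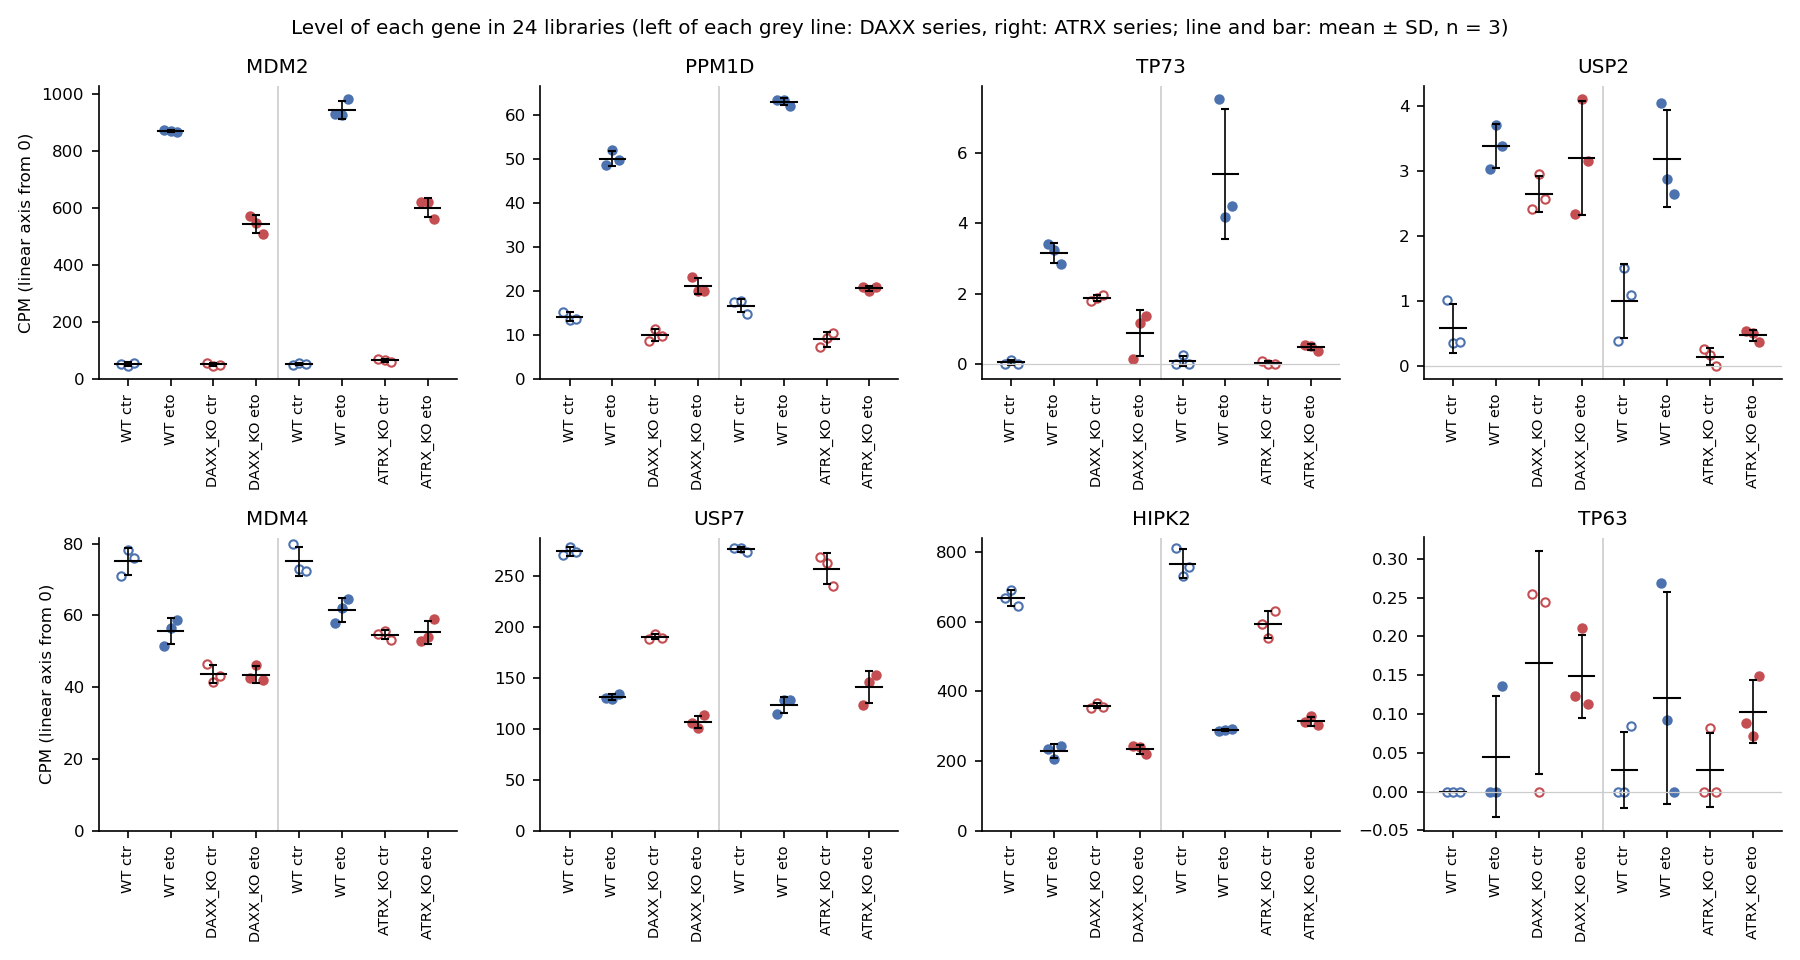
Level of each of the 8 genes in CPM (vertical axis, linear from 0, its own scale per gene) in 24 libraries, with open points for control, filled points for etoposide, blue for WT and red for knockout; black lines and bars are the mean ± SD of 3 libraries. MDM2 and PPM1D rise with etoposide in every group pair and end lower in the knockouts, HIPK2 and USP7 fall, and TP63 stays at 3 counts or fewer per library.

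TP73 (chr1:3569080-3652765, plus strand) was near 0 in untreated WT cells and appeared under etoposide. Raw counts were 0, 1 and 0 in untreated WT of the DAXX series and 27, 27 and 21 with etoposide. WT of the ATRX series had 0, 3 and 0 counts untreated and 84, 45 and 46 when treated. The summed counts per scaled depth rose 84.5-fold (95% counting interval 14.7 to 3381) and 67.0-fold (22.5 to 328), where the interval covers counting error only. The edgeR test called both rises (FDR = 1.83e-06 and 4.62e-07), with fitted log2 fold changes of 5.94 and 5.91 that rest on the 1 and 3 untreated counts. Without the untreated library that holds those counts, replicate 2 in each series, the fitted values were 7.74 and 9.04.

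The 2 knockouts differed at TP73. Untreated DAXX_KO already had 14, 14 and 16 counts, which is 49.9-fold above its WT (95% counting interval 8.49 to 2013; FDR = 3.53e-05). With etoposide DAXX_KO had 1, 11 and 12 counts, so that the gene did not rise there (log2 fold change -1.04 with a 95% interval from -2.01 to -0.08, FDR = 0.0817). Replicate 1 of that group stood apart with its single count. Without it the log2 change was -0.57, and without replicate 3 it was -1.46 and passed (FDR = 0.0436). ATRX_KO was at 1, 0 and 0 counts untreated and at 6, 7 and 5 with etoposide, a 17.0-fold rise (95% counting interval 2.69 to 709; FDR = 0.00717). The fitted log2 value for TP73 there was 3.65, and 5.51 without untreated replicate 1, which held the 1 count. Under etoposide both knockouts were below WT, at a ratio of 0.285 (95% counting interval 0.172 to 0.457; FDR = 0.00277) for DAXX_KO and 0.0854 (0.0495 to 0.139; FDR = 1.56e-05) for ATRX_KO.

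The fitted interaction for TP73 was -6.98 ± 0.96 (FDR = 6.12e-05) in DAXX_KO. Its size rests on the 1 count in untreated WT, under the floor, and ran from -8.78 to -6.47 when single libraries were left out. In ATRX_KO the fitted TP73 interaction was -2.26 and did not pass (FDR = 0.579), on 3 untreated counts in WT and 1 in ATRX_KO. Its 95% interval ran from -6.97 to 2.46, from an SE that is unstable at such counts. When single libraries were left out the value ran from -5.40 to -0.39, so that its size could not be placed. The knockout effects in untreated cells differed by -6.48 between ATRX_KO and DAXX_KO (FDR = 0.0104), a call that was lost without replicate 2 of the untreated WT of the ATRX series (FDR = 0.944). TP73-AS1 overlaps the last part of TP73 on the opposite strand and had a different pattern: 1, 2 and 0 counts in untreated DAXX_KO, 30, 35 and 47 in untreated ATRX_KO and 5 to 13 in the untreated WT libraries. TP63 (chr3:189349178-189615065, plus strand), the other relative of p53, had 0 to 3 counts in each of the 24 libraries, at or under the floor of 3 counts, which is 0.215 to 0.407 CPM, and no fold is given for it.

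USP2 (chr11:119225925-119252421, minus strand), the MDM2 deubiquitinase, was the other gene at low counts. In WT of the DAXX series it went from 10, 3 and 3 counts to 24, 31 and 25 with etoposide, and in WT of the ATRX series from 5, 18 and 13 to 45, 31 and 27. The treated WT libraries lay above the untreated ones in both series, with log2 fold changes of 2.49 ± 0.40 (FDR = 2.08e-05) and 1.71 ± 0.45 (FDR = 0.00368). Untreated DAXX_KO had 19, 22 and 21 counts, higher than WT by 2.12 ± 0.41 on the log2 scale (FDR = 0.000211), whereas untreated ATRX_KO had 3, 2 and 0 counts, all at or under the floor of 3. Per scaled depth that was 0.140 of its WT (95% counting interval 0.0429 to 0.358; FDR = 0.00406), with a fitted log2 value of -2.75 that ran from -3.44 to -2.17 when single libraries were left out. The knockout effects thus ran in opposite directions, with a fitted difference of -4.87 ± 0.78 (FDR = 1.83e-05) that ran from -5.57 to -4.29.

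Etoposide left USP2 in DAXX_KO at 19, 39 and 28 counts, a log2 change of 0.29 with a 95% interval from -0.34 to 0.92, and the interaction was -2.20 ± 0.52 (FDR = 0.00708). ATRX_KO had 6, 7 and 5 counts with etoposide, which by coincidence are the counts of TP73 in those libraries, and stayed below WT by 2.78 (-2.78 ± 0.50, FDR = 0.000227). Its response of 1.68 missed the threshold (95% interval 0.18 to 3.19, FDR = 0.0799) and passed with all 24 libraries in 1 model (FDR = 0.0456). The interaction of -0.03 had a 95% interval from -1.41 to 1.36, so that the depth does not say whether the ATRX_KO response differed from WT. USP2-AS1, which overlaps USP2 on the opposite strand, moved in part with it: 0 to 4 counts in untreated ATRX_KO and 23 to 39 in treated DAXX_KO, the lowest and the highest of the 8 groups by mean CPM. The share of USP2 counts that came from it was not tested.

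MDM4 (chr1:204485507-204527248, plus strand), which unlike MDM2 went down with damage, fell a little in WT cells. It went from 71.0, 78.4 and 76.1 to 51.6, 56.6 and 58.8 CPM in WT of the DAXX series and from 79.8, 73.0 and 72.5 to 57.8, 62.1 and 64.6 CPM in WT of the ATRX series. The untreated and treated WT libraries did not overlap, at log2 fold changes of -0.42 ± 0.08 (FDR = 0.000144) and -0.27 ± 0.08 (FDR = 0.00667). Both knockouts began lower, at 46.4, 41.4 and 43.3 CPM in DAXX_KO and 54.7, 55.8 and 53.3 CPM in ATRX_KO. With etoposide they stood at 42.5, 46.1 and 41.9 CPM and at 52.9, 53.9 and 59.0 CPM, overlapping their untreated libraries. The responses were 0.00 with a 95% interval from -0.16 to 0.17 in DAXX_KO and 0.01 with an interval from -0.14 to 0.16 in ATRX_KO.

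The interaction for MDM4 passed in DAXX_KO (0.42 ± 0.11, FDR = 0.0188), and it was lost under library totals and without any of 3 single libraries (FDR up to 0.0832). In ATRX_KO it missed the threshold (0.28 with a 95% interval from 0.06 to 0.49, FDR = 0.0984) and passed with all 24 libraries in 1 model (0.31, FDR = 0.0395). The untreated knockout effect was -0.78 ± 0.08 (FDR = 1.24e-07) in DAXX_KO and -0.46 ± 0.08 (FDR = 0.000144) in ATRX_KO. As at PPM1D, the 60 tested neighbours of MDM4 on chromosome 1 were lower too, with medians of -0.58 and -0.47, and the part of that regional level in the MDM4 result was not tested. Under etoposide MDM4 remained lower in DAXX_KO (-0.36 ± 0.08, FDR = 0.000997) and did not pass in ATRX_KO (-0.18 with an interval from -0.33 to -0.03, FDR = 0.0701).

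USP7 (chr16:8985954-9069185, minus strand) fell with etoposide in all 4 cell groups. WT went from 271, 279 and 274 to 130.1, 129.9 and 134 CPM in the DAXX series and from 278, 278 and 274 to 114, 128 and 128 CPM in the ATRX series. DAXX_KO went from 189, 194 and 189.7 to 106, 101 and 114 CPM, and ATRX_KO from 269, 264 and 240.3 to 123, 146 and 153 CPM. No treated library overlapped an untreated one. The log2 fold changes were -1.05 (FDR = 2.25e-11) and -1.14 (FDR = 4.54e-09) in WT, -0.83 (FDR = 1.56e-09) in DAXX_KO and -0.88 (FDR = 2.12e-07) in ATRX_KO, or 79.0% and 77.0% of the WT response. Neither interaction passed, at 0.22 (95% interval 0.05 to 0.39, FDR = 0.106) and 0.26 (0.03 to 0.49, FDR = 0.152). Both verdicts turned on the setting. In ATRX_KO the interaction passed with all 24 libraries in 1 model (0.29, FDR = 0.0401) and without replicate 1 of treated ATRX_KO (0.35, FDR = 0.0242), and in DAXX_KO without replicate 2 of treated DAXX_KO (0.26, FDR = 0.0460). Untreated DAXX_KO was lower than WT by 0.53 (-0.53 ± 0.06, FDR = 5.69e-07, and -0.34 with library totals), where the neighbours of USP7 had a median of 0.15, and untreated ATRX_KO did not pass (-0.10 with an interval from -0.26 to 0.07). The gap between the 2 knockout effects passed the test, at 0.42 ± 0.10 (FDR = 0.00145).

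HIPK2 (chr7:139246316-139477797, minus strand) had the deepest fall in WT cells. It went from 669, 691 and 645 to 236, 206 and 244 CPM in the DAXX series (log2 fold change -1.53 ± 0.07, FDR = 2.67e-13). In the ATRX series it went from 812, 731 and 758 to 287, 291 and 291 CPM (-1.38 ± 0.07, FDR = 4.98e-11). DAXX_KO began at 354, 368 and 356 CPM and ended at 242, 239 and 219.8 CPM, and ATRX_KO began at 593, 553 and 632 CPM and ended at 312, 328 and 303 CPM. Untreated knockout cells thus lay below untreated WT without overlap, whereas under etoposide the log2 difference from WT was 0.03 (95% interval -0.11 to 0.16) in DAXX_KO and 0.09 (-0.05 to 0.23) in ATRX_KO. Treated DAXX_KO overlapped its WT, and treated ATRX_KO lay above its WT without overlap. With library totals the ATRX_KO difference of HIPK2 was 0.19 and passed (FDR = 0.0439).

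The fall in HIPK2 was smaller in both knockouts, with interactions of 0.92 ± 0.09 (FDR = 2.82e-06) in DAXX_KO and 0.46 ± 0.10 (FDR = 0.00525) in ATRX_KO. DAXX_KO kept 40.0% of the WT log2 response and ATRX_KO 66.9%, beside medians of 73.9% and 65.3% over all genes that fell in WT. The limit given for the medians beside MDM2 holds for these as well. The difference between these interactions was -0.44 ± 0.13, which missed the threshold in edgeR (FDR = 0.0711) and passed it in DESeq2 (FDR = 0.0169). Without damage HIPK2 was lower by 0.89 (-0.89 ± 0.07, FDR = 1.3e-09) in DAXX_KO and by 0.37 (-0.37 ± 0.07, FDR = 0.000439) in ATRX_KO, and these effects differed by 0.52 ± 0.09 (FDR = 8.13e-05). Its 60 neighbours on chromosome 7 had medians of 0.25 and 0.01, and HIPK2 ranked 2nd and 15th from the lowest among them.

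**Figure D2:**
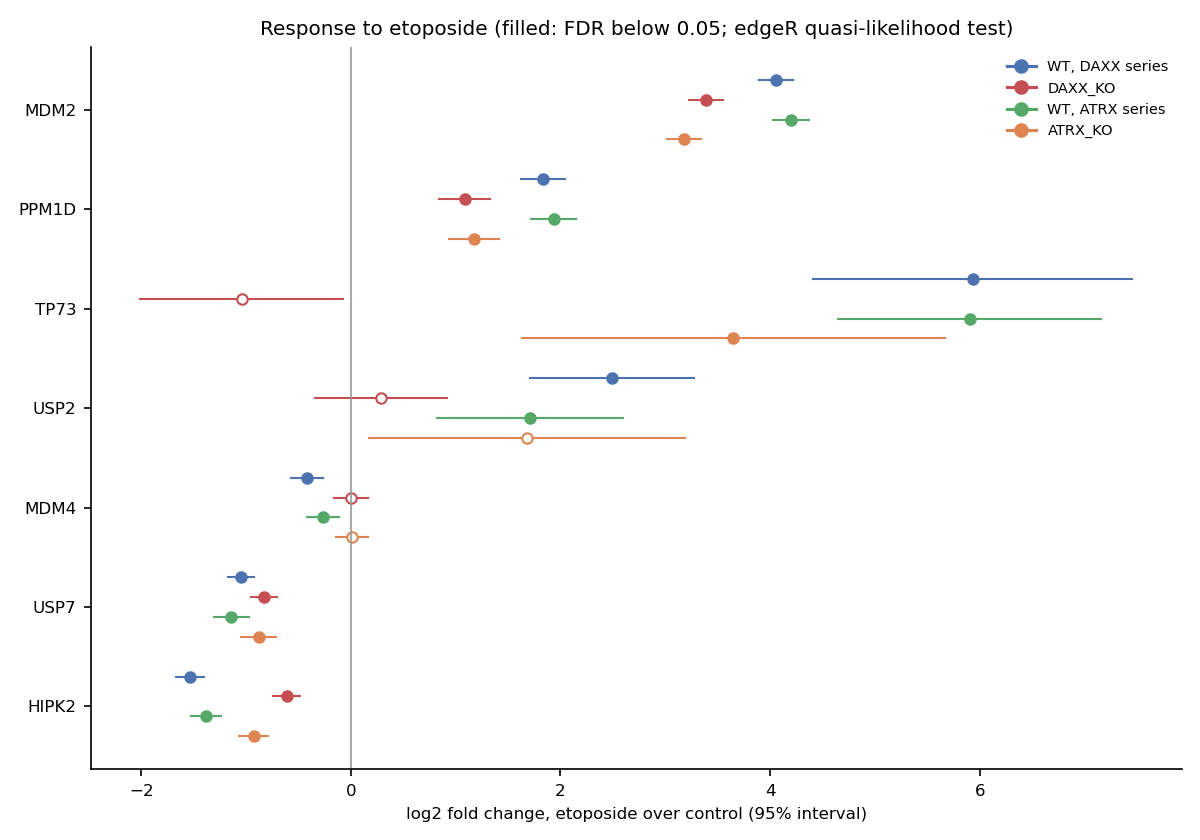
Log2 fold change of etoposide over control (horizontal axis) for the 7 tested genes in WT of each series and in each knockout, with 95% intervals and filled points for FDR below 0.05. In WT cells 4 genes rise and 3 fall in both series, and the knockout values lie nearer to 0 for MDM2, PPM1D, MDM4, USP7 and HIPK2.

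Counted over the group, etoposide moved all 7 tested genes in WT of the DAXX series, 4 higher and 3 lower. Of all genes tested there 60.2% were called, 29.6% higher and 30.6% lower. The same 7 genes moved the same way in WT of the ATRX series, where 61.5% of all genes were called, 31.7% higher and 29.8% lower. In DAXX_KO 4 of 7 were called, 2 higher and 2 lower (54.5% of all genes, 26.8% higher and 27.8% lower), and in ATRX_KO 5 of 7, 3 higher and 2 lower (49.5%, 24.3% and 25.2%). For the interaction the background was lower: 6 of 7 genes were called in DAXX_KO, 2 higher and 4 lower, against 14.2% of all genes (8.38% higher and 5.79% lower). In ATRX_KO 3 of 7 were called, 1 higher and 2 lower, against 16% (8.36% and 7.64%). With library totals in place of TMM, higher calls went from 59.1% to 36.8% of all interaction calls in DAXX_KO. Called values below 0 were those of TP73, MDM2, PPM1D and USP2, and those above 0 were MDM4 and HIPK2. The interaction subtracts the WT response, so that a sign opposite to it is favoured, and between 70.5% and 83.2% of all genes called in WT had a smaller response in the knockout.

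The knockouts without damage changed 6 of 7 genes in DAXX_KO, 2 higher and 4 lower, where 53.4% of all genes were called (26.7% higher and 26.6% lower). They changed 5 of 7 in ATRX_KO, 1 higher and 4 lower, where 41.8% were called (20.8% and 21%). MDM4, PPM1D and HIPK2 were lower in both, and USP2 was called in opposite directions. In DAXX_KO higher calls made up 50.1% of all calls with TMM and 66.2% with library totals. The direct test of 1 knockout effect against the other called 6 of 7 genes, 4 above 0 and 2 below, with 34.1% of all genes called (17.2% and 17%). The calls of MDM2 and MDM4 were lost with library totals and without replicate 2 of untreated DAXX_KO (FDR up to 0.103 for MDM2 and 0.162 for MDM4). PPM1D was the one that did not pass, at -0.37 with a 95% interval from -0.71 to -0.03, and it passed with library totals (-0.49, FDR = 0.0328) and without replicate 3 of untreated ATRX_KO (-0.49, FDR = 0.0340). With etoposide 5 of 7 genes were lower in DAXX_KO than in WT (53% of all genes called, 27.9% higher and 25.2% lower) and 4 of 7 in ATRX_KO (45.9%, 23% and 22.9%), and none was higher. MDM2, PPM1D and TP73 were lower in both. None of the 7 differed between knockouts in the interaction itself by edgeR, where 3% of all genes were called (1.08% above 0 and 1.92% below), while 4 had an unadjusted p under 0.05 (TP73, MDM2, USP2 and HIPK2) and DESeq2 called HIPK2 alone.

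**Figure D3:**
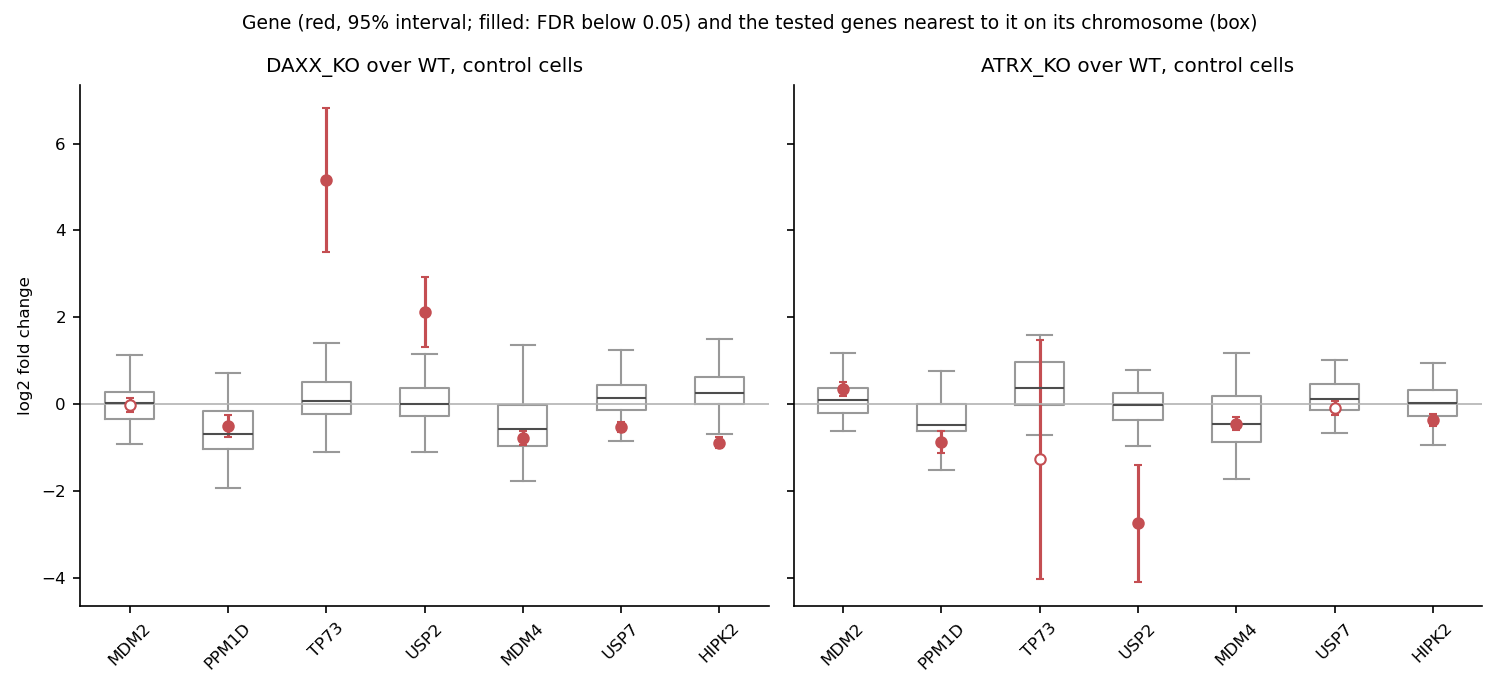
Log2 fold change of knockout over WT in untreated cells (vertical axis) for the 7 tested genes (red, 95% interval, filled for FDR below 0.05) beside the 60 tested genes nearest to each on its chromosome (grey box, median and quartiles, whiskers to 1.5 times the box). The boxes of PPM1D and MDM4 lie below 0 for most neighbours in both knockouts, whereas TP73, USP2, USP7 and HIPK2 in DAXX_KO lie outside the box of their neighbours.

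The sample titles name the WT cells of the 2 series DAXX WT and ATRX WT. The study's methods describe a U87-T control with an empty Cas9 vector. If both WT groups are that control, their differences show how far the series differ. Untreated, 1 of 7 genes was called between them, HIPK2 (0.20 ± 0.07, FDR = 0.0455), against 13.2% of all genes (7.22% higher and 6.01% lower), and 7 alternatives lost that call. With etoposide 2 of 7 were called, HIPK2 (0.34, FDR = 0.00092) and PPM1D (0.33, FDR = 0.0194), against 15.9% of all genes (8.44% and 7.42%), and PPM1D was lost without any single library of these groups. The tests of DAXX_KO against ATRX_KO were made through each knockout's own WT, and direct statements on their levels set the series side by side with no test.

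Ordered by level over the 8 groups, MDM2 ran from treated WT (944 ± 31.4 and 869 ± 4.87 CPM, SD, n = 3) through treated ATRX_KO and DAXX_KO (601 ± 34.3 and 543 ± 32.5 CPM, SD, n = 3), which overlapped, to untreated ATRX_KO at 66.1 ± 4.82 CPM and the 3 other untreated groups, which overlapped at 52.0 to 52.9 CPM. PPM1D had the same order of treated WT above treated knockouts, and its treated knockouts (20.6 and 21.1 CPM) were above untreated WT (14.2 and 16.7 CPM) without overlap. HIPK2 and USP7 ran the other way: untreated WT was highest for both, and the lowest means were treated WT of the DAXX series for HIPK2 (229 ± 20.003 CPM, SD, n = 3), which overlapped treated DAXX_KO, and treated DAXX_KO for USP7 (107 ± 6.22 CPM, SD, n = 3). For MDM4 both untreated WT groups overlapped at the top and both DAXX_KO groups overlapped at the bottom. Levels are not compared between genes.

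Across the 24 libraries, which share the 8 groups, HIPK2 and USP7 had a Pearson correlation of 0.951 in log2 CPM, MDM2 and PPM1D of 0.837, and MDM2 and USP7 of -0.908. MDM4 was the gene least tied to the others, from -0.422 with TP73 to 0.657 with HIPK2. Searched over all filtered genes, the closest to MDM2 were SESN2 (r = 0.994), a stress-induced inhibitor of mTORC1, and CES2 (r = 0.992), a carboxylesterase. SCNM1 (r = 0.979) and RAE1 (r = 0.964) were closest to PPM1D, XRCC5 (r = 0.986) and EXOSC10 (r = 0.986) to USP7, and MRM2 (r = 0.979) and RGS17 (r = 0.979) to HIPK2. MDM4 was closest to RAB3B (r = 0.955) and LPAR1 (r = 0.953), USP2 to CRIP2 (r = 0.942) and RALGDS (r = 0.929), and TP73 to EPM2AIP1 (r = 0.897) and MICALL2 (r = 0.896). These correlations describe libraries that differ mainly by treatment and genotype, and are given with no test.

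**Figure D4:**
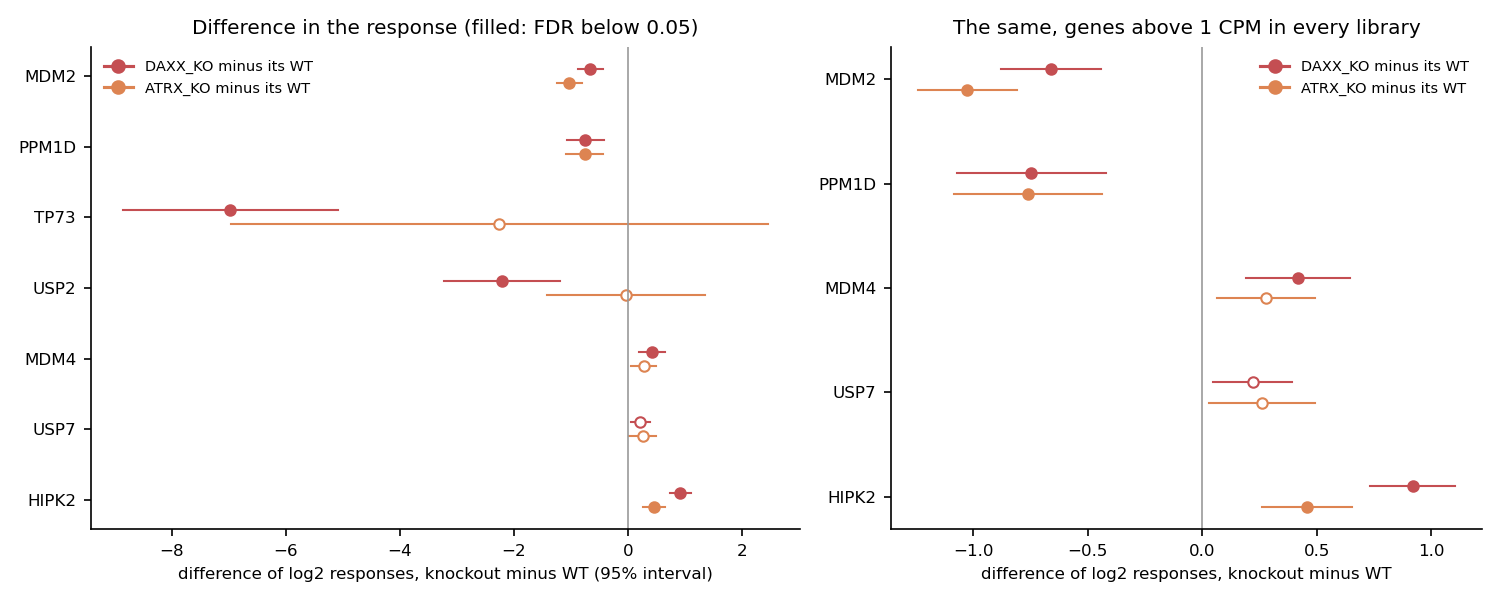
Difference of the log2 response to etoposide, knockout minus its WT (horizontal axis), for the 7 tested genes (left) and for the 5 genes above 1 CPM in every library on a wider scale (right), with 95% intervals and filled points for FDR below 0.05. MDM2 and PPM1D lie below 0 and HIPK2 above 0 in both knockouts.

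Other genes around p53 were taken from 7 lists, which like the members were drawn up with earlier results of these data known, so that their counts are a description. Of 20 p53 target genes, all 20 rose with etoposide in each of the 4 cell groups, with median log2 fold changes of 2.52 and 2.78 in WT of the DAXX and ATRX series, 2.12 in DAXX_KO and 1.89 in ATRX_KO. The medians of all genes tested lay between -0.00 and 0.07. Of all genes tested, 29.6% and 31.7% were called higher in WT of the DAXX and ATRX series, 26.8% in DAXX_KO and 24.3% in ATRX_KO. GDF15, a stress cytokine, rose most in all 4 (8.66 and 8.39 in WT). The interaction was lower for 11 and higher for 1 of the 20 in DAXX_KO, with a median of -0.49, and lower for 14 in ATRX_KO, with a median of -1.03. Over all genes 5.79% were lower and 8.38% higher in DAXX_KO and 7.64% lower in ATRX_KO. Among the 20, GDF15 was the most negative in both (-1.57, FDR = 2.52e-09, and -2.64, FDR = 1.09e-09).

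The regulators moved in mixed directions, beside 60.2% and 61.5% of all genes called with etoposide in WT of the DAXX and ATRX series, about evenly up and down. Of 12 ubiquitin ligases of p53 or MDM2, 4 rose and 5 fell with etoposide in WT of the DAXX series and 3 rose and 6 fell in WT of the ATRX series, so that 9 of 12 were called in each. COP1, an E3 ligase for p53, fell most (-1.11 and -1.57), and its interaction was above 0 in ATRX_KO (0.59, FDR = 0.0364). Of 12 p53 kinases, 6 and 5 fell, CHEK1 most (-1.34 and -1.04), and 1 and 3 rose, PLK3 most (2.54 and 2.21). The PLK3 rise was smaller in both knockouts (interaction -1.20, FDR = 5.95e-05, and -0.58, FDR = 0.0224). Of 12 acetylation and methylation enzymes, 7 and 6 fell in WT, with medians of -0.39 and -0.50. The interaction of this list called 2 higher values in DAXX_KO and 3 in ATRX_KO, and no lower ones. Over all genes 8.38% were higher and 5.79% lower in DAXX_KO, and 8.36% and 7.64% in ATRX_KO. A sign opposite to the WT response is favoured in the interaction. The deacetylase gene SIRT1 was highest in DAXX_KO (0.62, FDR = 0.0188) and the acetyltransferase gene KAT2B in ATRX_KO (1.35, FDR = 0.0140).

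Without damage the counts of these lists were as follows, with the called genes at either end of each list. Of 12 ligases 3 were higher and 2 lower in DAXX_KO, from HUWE1 (0.51, FDR = 8.35e-06) to CUL4A (-0.79, FDR = 6.12e-08), and 6 were higher and 2 lower in ATRX_KO, from DDB1 (0.56, FDR = 0.00186) to TRIM28 (-1.24, FDR = 4.57e-08). Of 8 deubiquitinases 2 were higher and 1 lower in DAXX_KO, from USP42 (0.93, FDR = 5.54e-07) to USP10 (-0.62, FDR = 5.64e-07), and 4 were higher in ATRX_KO, with OTUD5 first (0.54, FDR = 1.4e-05). Of 12 kinases 2 were higher and 2 lower in DAXX_KO, from DYRK2 (0.59, FDR = 0.00025) to CSNK1D (-0.55, FDR = 2.5e-05), and 4 were higher and 1 lower in ATRX_KO, from ATM (0.43, FDR = 0.0103) to CHEK1 (-0.42, FDR = 0.0119). Of 12 acetylation and methylation enzymes 2 were higher and 4 lower in each. KAT2B was the highest in DAXX_KO (0.85, FDR = 0.000775) and the lowest in ATRX_KO (-1.66, FDR = 1.35e-05), and the difference of these effects passed (-2.52, FDR = 3.3e-07). KAT2B also differed between the untreated WT groups (0.74, FDR = 0.0201). The background was 26.7% higher and 26.6% lower in DAXX_KO and 20.8% and 21% in ATRX_KO.

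Of 8 other deubiquitinases, 3 rose and 3 fell with etoposide in WT of the DAXX series and 4 rose and 3 fell in that of the ATRX series, beside the same 60.2% and 61.5% of all genes. ATXN3 rose most in both (1.14 and 0.97), and its interaction was below 0 in DAXX_KO (-0.46, FDR = 0.0486) and ATRX_KO (-0.49, FDR = 0.0187). Of 8 binding partners of p53, 3 rose and none fell in each WT, JMY, a p300 cofactor, most (1.60 and 1.90). In the same list DAXX_KO without damage had 4 lower and none higher, with PPP1R13L, the p53 inhibitor iASPP, at -1.38 (FDR = 7.15e-06), where 26.6% of all genes were lower. ATRX_KO without damage had 3 higher and 2 lower, with JMY at 2.16 (FDR = 1.22e-08) and PPP1R13L at 0.73 (FDR = 8.61e-05). JMY was also lower in untreated WT of the ATRX series than of the DAXX series (-1.005, FDR = 0.000292). Of 10 inhibitors of MDM2, 9 were tested. Untreated DAXX_KO had 8 lower and 1 higher (median -0.39) beside 26.6% and 26.7% of all genes. Untreated ATRX_KO had 1 lower and 1 higher (median 0.04) beside 21% and 20.8%. Most of this list are ribosomal protein genes (RPL5, RPL11, RPL23, RPL26, RPS7 and RPS27L), which may move together. The counts therefore do not speak for inhibitors of MDM2 as a class, and the part of ribosomal genes in them was not tested. NPM1, a nucleolar protein that binds MDM2, fell most in DAXX_KO (-1.13, FDR = 5.2e-10). RPS27L, a ribosomal protein gene that p53 induces, rose with etoposide by 2.23 and 2.48 in WT and less in DAXX_KO and ATRX_KO (interaction -0.76, FDR = 6.4e-05, and -0.98, FDR = 0.0192). Between untreated WT groups 4 of these 9 were lower in the ATRX series than in the DAXX series and none was higher. Of all genes 6.01% were lower and 7.22% higher there. This difference between series stands beside the counts of this list.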

How the data were processed

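RNA-seq of 24 libraries was used. The authors made the libraries with the QuantSeq 3′ mRNA kit, aligned 75-base reads with STAR to hg19 and estimated counts per gene with RSEM. The deposited values are expected counts that are whole numbers, with no normalization found in them, so that no rounding was needed. GENCODE symbols matched 55501 of 57736 gene identifiers.

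The counts were fitted with edgeR 4.0.16 in R 4.3.3 by a quasi-likelihood test, with TMM scaling, filterByExpr (minimum count 10, minimum total 15), 4 groups in 1 model per series (15247 and 16371 genes tested) and Benjamini-Hochberg adjustment over all genes (FDR, called below 0.05). Comparisons across series used 1 model of 24 libraries and 8 groups (16674 genes). SE was derived from the test, as the absolute log2 fold change divided by the square root of the quasi-likelihood F statistic. The 95% intervals place a normal spread of that SE around the log2 fold change. Both are approximate and unstable for values near 0 or at low counts. For the USP2 interaction in ATRX_KO the SE was 0.71, and 0.12 with library totals. Replicate pairs differed by a chi-square of 2.16 to 17.1 per degree of freedom, so that no pair of libraries was counted as 1, and the precision of low genes is set by counting (floor of 3 counts per library). The common BCV (the biological variation that edgeR fits) was 0.0825 and 0.106 for the series of DAXX and ATRX. Correlations used log2 CPM with a prior count of 1. Neighbours were the 30 tested genes on either side. The genes named are the 8 members in all 14 comparisons, DAXX and ATRX, the 2 genes most correlated with each member, and from each list the called genes with the largest increase and decrease in untreated knockouts and in the interactions, of which the text prints part. Other values given for those genes, and any background gene named beside a member, were chosen after the values were seen. The members and the lists were chosen with earlier results of these data known, and the motif tolerance was set after looking at the windows. The fit was checked on simulated counts. Alternatives were RLE factors, library totals, DESeq2 1.42.0, no filter, a filter of 10 counts in every library, a replicate block, other sets of libraries in the fit, and leaving out each library. Plots were made in Python 3.11.15 using matplotlib 3.10.9. Only RNA-seq was used.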

Additional observations from a re-analysis of the deposited data

Results flagged for a closer look

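The results below differed between cell groups under the same contrast by a test of the difference itself. FDR is from edgeR and SE is derived from its F statistic. The response to etoposide differed between DAXX_KO and its WT in 6 genes, by -6.98 ± 0.96 for TP73 (FDR = 6.12e-05, a size that rests on 1 count in untreated WT and was -8.78 without that library), -2.20 ± 0.52 for USP2 (FDR = 0.00708), -0.75 ± 0.17 for PPM1D (FDR = 0.00468), -0.66 ± 0.11 for MDM2 (FDR = 0.000462), 0.42 ± 0.11 for MDM4 (FDR = 0.0188) and 0.92 ± 0.09 for HIPK2 (FDR = 2.82e-06). It differed between ATRX_KO and its WT in 3 genes, by -1.03 ± 0.11 for MDM2 (FDR = 1.92e-05), -0.76 ± 0.17 for PPM1D (FDR = 0.00515) and 0.46 ± 0.10 for HIPK2 (FDR = 0.00525). The MDM4 call in DAXX_KO was lost under 4 alternatives (FDR up to 0.0832). Background shares of called genes were 14.2% and 16%.

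The knockout effect without damage, ATRX_KO minus DAXX_KO, differed in 6 genes. The differences were -6.48 ± 1.93 for TP73 (FDR = 0.0104), -4.87 ± 0.78 for USP2 (FDR = 1.83e-05), 0.52 ± 0.09 for HIPK2 (FDR = 8.13e-05), 0.42 ± 0.10 for USP7 (FDR = 0.00145), 0.37 ± 0.12 for MDM2 (FDR = 0.0169) and 0.32 ± 0.11 for MDM4 (FDR = 0.0215), with 34.1% of all genes called. USP2 ran in opposite directions in the 2 knockouts, and TP73 was raised in DAXX_KO and at 1 count in 3 libraries of ATRX_KO. The TP73 call was lost without replicate 2 of untreated WT of the ATRX series (FDR = 0.944). The MDM2 and MDM4 calls were lost with library totals and without replicate 2 of untreated DAXX_KO.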

How the results depend on the processing

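Of 98 tests of single genes, 61 were called, and 55 of these calls were kept under every alternative and every left-out library. The other 6 were MDM4 in the DAXX_KO interaction (lost 4 times, FDR up to 0.0832), HIPK2 (7 times, up to 0.199) and PPM1D (6 times, up to 0.120) between the WT groups, and TP73 (FDR = 0.944 without replicate 2 of untreated WT in the ATRX series), MDM2 (2 times, up to 0.103) and MDM4 (3 times, up to 0.162) in the difference of knockout effects. No called value changed sign. Another 12 results were called only under some alternatives, in 18 values. They were the interactions of USP7 in both knockouts and of MDM4 in ATRX_KO, HIPK2 in the difference of interactions, the responses of TP73 in DAXX_KO and USP2 in ATRX_KO, USP7, HIPK2 and MDM4 in treated ATRX_KO against WT, MDM2 and MDM4 between treated WT groups, and PPM1D in the difference of knockout effects. Counts of called genes stayed within 1.5 times, except for the difference of interactions (500 genes, 751 with DESeq2 and 752 with no filter) and between the WT groups when 1 library was left out (2206 untreated, from 1106 to 1695; 2646 with etoposide, from 1712 to 2027).

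Values that changed sign were all of genes that did not pass. With library totals they were MDM2 in DAXX_KO control cells (0.16), MDM4 in the DAXX_KO response (-0.10), USP2 in the ATRX_KO interaction (0.0087), MDM2 and MDM4 between untreated WT groups (0.031 and 0.054), USP2 between treated WT groups (0.0070) and MDM4 in the difference of interactions (0.0081). DESeq2 gave 0.059 for USP2 in the ATRX_KO interaction. PPM1D in the difference of interactions was -0.0012 with DESeq2, -0.00049 with RLE factors and -0.048 with no filter. MDM4 was -0.025 in the ATRX_KO response with no filter, -0.0045 in the DAXX_KO response with all libraries in 1 model, and 0.0030 between untreated WT groups with the filter of 10 counts.

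Leaving out 1 library gave ranges that cross 0 for MDM4 in the response of DAXX_KO (-0.040 to 0.052) and ATRX_KO (-0.043 to 0.037), HIPK2 (-0.043 to 0.077) and USP2 (-0.29 to 0.10) in treated DAXX_KO, MDM2 in untreated DAXX_KO (-0.10 to 0.046), TP73 in untreated ATRX_KO (-3.14 to 1.86), USP2 in the ATRX_KO interaction (-0.61 to 0.67) and PPM1D in the difference of interactions (-0.14 to 0.13). Between untreated WT groups they were -0.10 to 0.048 for MDM2, -0.046 to 0.034 for MDM4 and -2.01 to 2.94 for TP73, and between treated WT groups -0.32 to 0.0074 for USP2.

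No effect shared by replicate number was seen. After the level of each group was taken out, same-numbered libraries correlated from -0.216 to 0.0487 over 18 pairs per series. That does not settle how the replicates were taken. A fit with the replicate number as a block kept 96 of 98 verdicts. The others were MDM4 between untreated WT groups (0.00090 in place of a value just below 0) and HIPK2 there (0.20, FDR = 0.0569). With library totals the share of higher calls rose from 53.2% to 76.4% between treated WT groups, from 54.6% to 70.7% between untreated ones and from 36.0% to 65.3% in the difference of interactions, and fell from 50.3% to 37.3% in the difference of knockout effects. Counts limit TP63, TP73 and USP2.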
